A study of Caenorhabditis elegans with 2 samples.

Results

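The CDC-48 ATPase genes of Caenorhabditis elegans and 5 genes of CDC-48 cofactors were examined for FOS-1 binding in chromatin immunoprecipitation sequencing (ChIP-seq) of whole worms at L1, the first stage of larval life. The 7 genes were cdc-48.1, its paralogue cdc-48.2, ufd-1, npl-4.1, npl-4.2, ufd-2 and ufd-3, out of 19985 protein-coding genes. Here cdc-48.1 was chosen by the signal of its peak, known to be among the highest in these data, and the other 6 were taken by name as its paralogue and listed cofactors. The signal of the cdc-48.1 peak and its contrast with cdc-48.2 are therefore descriptions, and no test was made on them.

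Both samples were whole animals of strain OP304, genotype unc-119(ed3) III with the integrated transgene wgIs304, which carries fos-1 tagged with eGFP, a fluorescent protein used here as the tag. They were 2 biological replicates of 1 group, of pooled males and females of unknown age, and the label gives the antibody target as fos-1. FOS-1 is the worm Fos-type basic leucine zipper transcription factor. In whole larvae, binding in a few cells and weak binding in many cells cannot be told apart. No group of control animals was used here, and the tagged protein is made from a transgene, in addition to whatever the animals make from the fos-1 gene itself.

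CDC-48, known as p97 or VCP in mammals, is a ring-shaped ATPase of the AAA family. It pulls ubiquitin-tagged proteins out of complexes and membranes and passes them on for breakdown by the proteasome. Its cofactors choose the substrates. UFD-1 and NPL-4 form the main adaptor that binds ubiquitin chains, UFD-2 lengthens such chains, and UFD-3 (Doa1 in yeast, PLAA in mammals) is a ubiquitin-binding cofactor, roles known mainly from the yeast and mammalian proteins. In worms, cdc-48.1 and cdc-48.2 have overlapping functions.

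The deposited lists of build ce11 hold regions with a signal value and a summit, the base of highest signal. The list of replicate 1 held 29801 entries, that of replicate 2 held 23483, the list made from both replicates together (the pooled list) held 20363, and the list of peaks kept by the irreproducible discovery rate procedure (IDR, which weighs how alike both replicates rank a peak) held 1895. All 1895 IDR peaks were the first 1895 entries of the pooled list by signal. Being an IDR peak here thus marks a high pooled signal and does not show that the replicates ranked that peak alike. Of the 1895, 1879 overlapped an entry in both replicates. The replicate and pooled lists contain weak regions as well as peaks, so being listed in them is a low bar. An entry was given to a gene where its summit lay between 2 kb upstream of the annotated 5' end and the 3' end. The signal is the authors' own value, of unstated scaling, with a median of 17.1 in the pooled list, 9.60 in the list of replicate 1 and 8.0 in that of replicate 2, which is why signals are compared within a list, and between lists by rank or as a multiple of the list's median. Without read counts in the lists, sequencing depth is unknown.

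The sequences under the pooled entries of 4 genes are shown here because the results turn on them: the peaks upstream of cdc-48.1, ufd-3 and ufd-2, and the weaker entry upstream of cdc-48.2. Each is written 5' to 3' on the strand of its gene, from WBcel235 (the assembly called ce11), and lies wholly upstream of annotated exons. Capitals mark the 21 bases around the summit in the cdc-48.1, ufd-2 and ufd-3 sequences, where none of the motifs searched occurs, and the TGATAA match in the cdc-48.2 sequence.

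cdc-48.1, chrII:10563458-10563685, minus strand: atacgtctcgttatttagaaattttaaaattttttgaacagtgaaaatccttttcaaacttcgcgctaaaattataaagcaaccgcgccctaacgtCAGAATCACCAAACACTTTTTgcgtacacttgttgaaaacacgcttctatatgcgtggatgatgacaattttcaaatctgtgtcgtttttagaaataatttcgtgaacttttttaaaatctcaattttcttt

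cdc-48.2, chrII:8137319-8137618, plus strand: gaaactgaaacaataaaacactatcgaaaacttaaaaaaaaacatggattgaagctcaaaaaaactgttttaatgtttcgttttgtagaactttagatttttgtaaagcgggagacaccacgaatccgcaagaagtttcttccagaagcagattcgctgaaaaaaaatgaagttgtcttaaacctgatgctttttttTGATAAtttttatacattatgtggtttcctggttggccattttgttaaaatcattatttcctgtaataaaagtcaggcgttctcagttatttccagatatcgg

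ufd-2, chrII:8062241-8062540, plus strand: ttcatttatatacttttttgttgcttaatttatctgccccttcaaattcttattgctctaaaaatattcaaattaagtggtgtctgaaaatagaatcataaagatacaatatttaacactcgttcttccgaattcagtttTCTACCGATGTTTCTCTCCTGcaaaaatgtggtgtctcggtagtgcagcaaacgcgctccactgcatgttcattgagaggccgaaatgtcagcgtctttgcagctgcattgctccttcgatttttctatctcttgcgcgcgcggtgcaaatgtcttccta

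ufd-3, chrII:9940472-9940752, plus strand: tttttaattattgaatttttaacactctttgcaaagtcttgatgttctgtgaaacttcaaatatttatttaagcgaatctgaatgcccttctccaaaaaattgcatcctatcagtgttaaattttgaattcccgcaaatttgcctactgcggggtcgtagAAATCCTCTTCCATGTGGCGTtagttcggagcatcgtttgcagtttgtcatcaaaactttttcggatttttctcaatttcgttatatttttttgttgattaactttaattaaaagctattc

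The cdc-48.1 sequence is the whole entry of 228 bp and runs from 278 to 51 bp upstream of the 5' end. The cdc-48.2 sequence lies farther out, from 1177 to 878 bp upstream. The ufd-2 sequence spans 500 to 201 bp upstream, and the ufd-3 sequence spans the last 281 bp before the 5' end.

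The ATPase gene cdc-48.1 (WBGene00007352, chrII:10560036-10563407, minus strand) had a single entry in its window in each of the 4 lists. In replicate 1 the entry had a signal of 311 (rank 4), and in replicate 2 its signal was 179 (rank 6). The pooled list gave it a signal of 493, also at rank 4. These signals were 32.4 and 22.4 times the medians of the replicates' lists, a mean of 27.4 ± 7.09 (SD, n = 2). Summits lay 172 bp upstream of the 5' end in replicate 1 and 175 bp upstream in replicate 2, so the replicates placed the peak within 3 bp of each other.

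The region around the gene was rich in weaker entries. Within 20 kb of the gene on both sides the pooled list had 23 entries, against a median of 8 around protein-coding genes, and the next highest of them had a signal of 142 and ranked 175. The paralogue cdc-48.2 had nearly as many, 22, while the other 5 genes had 4 to 7. Mitochondrial entries are among the highest in these lists. With mitochondrial entries set aside, an alternative added after seeing the data, the peak ranked 2 in the pooled list and in both replicates. The entry lies in the intergenic space of 704 bp between cdc-48.1 and C06A1.6, a gene on the same strand, and no protein-coding gene had a nearer 5' end than cdc-48.1. The summit also fell in the 2 kb window of 1 further gene, C06A1.7. At 228 bp it was narrower than the pooled median of 340 bp, as were 145 of the 1895 IDR peaks and 5 of the 10 entries of highest pooled signal.

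The 4 entries nearest to the cdc-48.1 peak in pooled rank were nuclear and mitochondrial. Rank 2 was the peak 742 bp from the 5' end of cebp-1, with a signal of 688 and rank 2 in both replicates. Rank 3 (signal 621) and rank 5 (signal 397) were mitochondrial, with COX3 and WBGene00000829 as the genes of nearest 5' end. Rank 6 (signal 396) was a region on X whose nearest 5' end was that of W02H3.3, at 4018 bp, and its replicate ranks were 7 and 29. The likeness used here is the pooled rank alone, over 1 list.

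**Figure D1:**
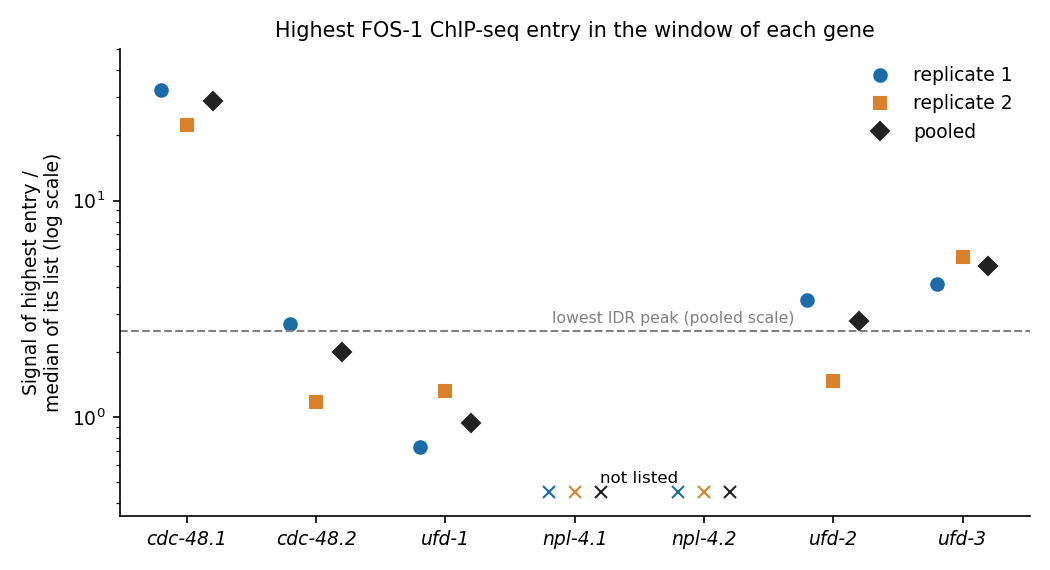
Highest entry in the window of each gene, as its signal divided by the median signal of its list (log axis), in replicate 1 (circles), replicate 2 (squares) and the pooled list (diamonds); crosses mark genes with no entry, and the dashed line is the lowest IDR peak on the pooled scale. The line is not a limit for the circles and squares, whose signals are divided by other medians. The values of cdc-48.1 are at 22.4 and 32.4 in the replicates, those of ufd-3 at 4.12 and 5.47, and npl-4.1 and npl-4.2 have none.

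The paralogue cdc-48.2 (WBGene00008053, chrII:8138496-8141230, plus strand) had no IDR peak. Its highest entry had a signal of 25.8 (rank 2117) in replicate 1, 9.38 (rank 7798) in replicate 2 and 34.1 (rank 2679) when pooled. As multiples of the list medians these were 2.68 and 1.17 in the replicates, a mean of 1.93 ± 1.07 (SD, n = 2). In replicate 2 the entry was thus little above the median of its list, with a −log10 q of 0.361, while in the pooled list the −log10 q was 2.16. The summits lay 1019 bp upstream in replicate 1 and 1014 bp upstream in replicate 2. They stood in the space of 1577 bp between cdc-48.2 and ctns-1, a gene read in the opposite direction whose 5' end was nearer, 551 bp from the pooled summit against 1027 bp for cdc-48.2. Replicate 2 alone listed a second region, in a coding exon 1202 bp downstream of the 5' end, with a signal of 5.97 and rank 22560 of 23483.

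Set side by side, cdc-48.1 was above cdc-48.2 in every list. The ratio of their highest signals, cdc-48.1 over cdc-48.2, was 14.5 with pooled signals, 12.1 in replicate 1 and 19.1 in replicate 2, a mean over the replicates of 15.6 ± 4.97 (SD, n = 2). On the log2 scale this ratio was 3.92 ± 0.47 (SD, n = 2). The encoded proteins were alike: 809 residues for CDC-48.1 and 810 for CDC-48.2, with the same residue in 88.1% of 817 aligned columns, translated from the annotated coding sequences. Coding sequences were identical in 75.4% of aligned columns. The 300 bp upstream of their 5' ends were identical in 46.8% of aligned columns, a share that depends on the gap costs of the alignment and was not compared with that of unrelated genes. Near the 5' end, where cdc-48.1 has its peak, cdc-48.2 had no pooled summit: none lay within 1000 bp upstream or in the gene. The pooled entry of cdc-48.2, with its summit 1027 bp upstream, did reach partly into those 1000 bp. In each gene body 99.7% of 30-base words occurred once in the genome.

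**Figure D2:**
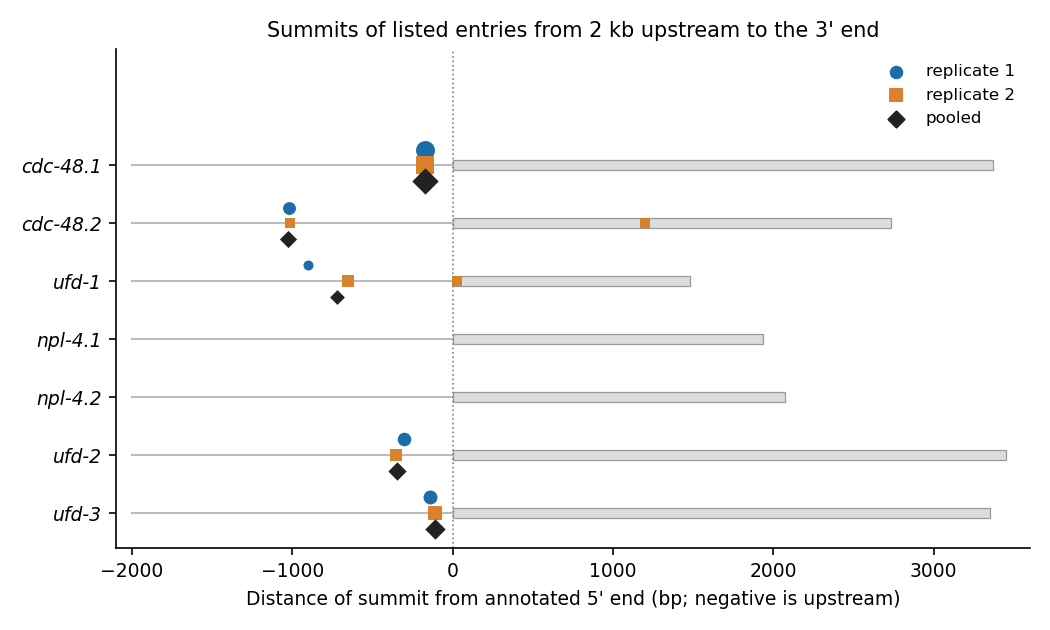
Summits of all listed entries of replicate 1 (circles), replicate 2 (squares) and the pooled list (diamonds) by distance in bp from the annotated 5' end of each gene, with gene bodies as grey bars and symbol size growing with the signal as a multiple of the list's median. The cdc-48.1 summits lie 172 to 175 bp upstream, while the upstream ones of cdc-48.2 lie 1014 to 1027 bp away.

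Among the cofactors, ufd-3 and ufd-2 had IDR peaks just upstream. The ubiquitin-binding cofactor gene ufd-3 (WBGene00007333, chrII:9940753-9944107, plus strand) had a signal of 39.5 (rank 1000) in replicate 1, 43.8 (rank 289) in replicate 2 and 85.9 (rank 515) when pooled. These were 4.12 and 5.47 times the list medians in the replicates (4.8 ± 0.960, SD, n = 2), and the summits were 144 and 111 bp upstream. The peak fell in the space of 320 bp between ufd-3 and C05C10.5 on the same strand. Of the 3 IDR peaks it was the one with a higher rank and signal in replicate 2 than in replicate 1. Summed over the replicates, replicate 2 gave 52.6% of the signal at ufd-3, against a median of 37.4% over 1879 IDR peaks listed in both replicates, of which 95.2% had a lower share. At cdc-48.1 that share was 36.5%.

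The ubiquitin chain-elongating factor gene ufd-2 (WBGene00006734, chrII:8062741-8066193, plus strand) had a signal of 33.3 (rank 1349) in replicate 1, 11.7 (rank 4281) in replicate 2 and 47.5 (rank 1582) when pooled. In the replicates these were 3.47 and 1.47 times the list medians (2.47 ± 1.42, SD, n = 2). The summits lay 303 and 355 bp upstream, in the space of 987 bp between ufd-2 and T05H10.8, a gene on the same strand. The replicates were unequal here: replicate 1 ranked the region among its first 1895 entries and replicate 2 did not. Its −log10 q was 3.55 in replicate 1 and 0.812 in replicate 2. Of all IDR peaks, 376 (19.8%) likewise had no overlapping entry among the first 1895 of replicate 2 although they overlapped a lower-ranked one, and 88 stood at or below rank 4281 there. The peak was close to the lower end of the IDR list, whose lowest signal was 42.5. With a pooled signal of 34.1, cdc-48.2 was on the other side of that limit.

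**Figure D3:**
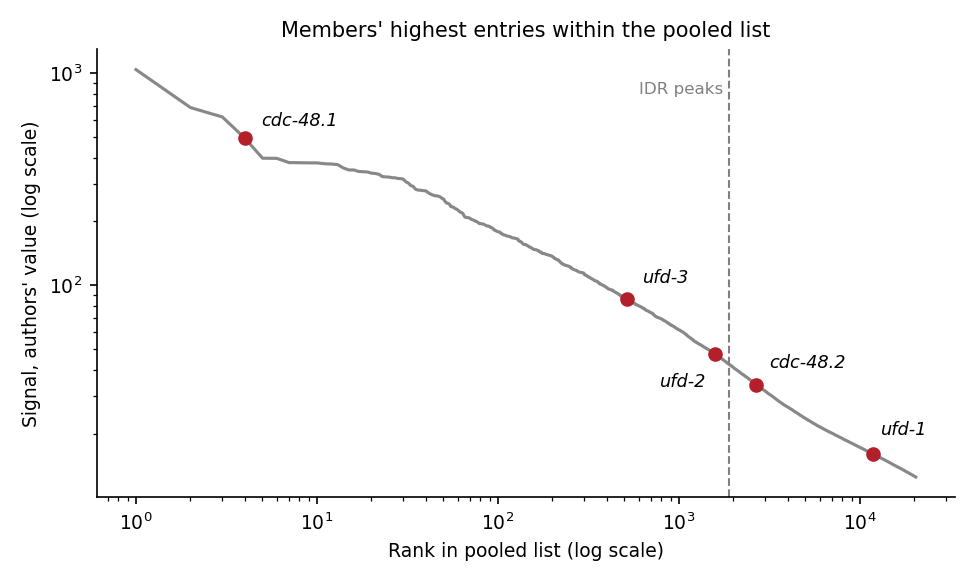
Signal against rank for all entries of the pooled list (grey line, both axes log), with the highest entry of each gene as a red point and the number of IDR peaks as a dashed line. The points for cdc-48.1 (rank 4), ufd-3 (515) and ufd-2 (1582) are left of the line, and those for cdc-48.2 (2679) and ufd-1 (11809) are right of it.

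The adaptor gene ufd-1 (WBGene00006733, chrIV:12329408-12330890, minus strand) had weak entries only. Its highest had a signal of 6.95 (rank 26944 of 29801) in replicate 1, 10.6 (rank 5636) in replicate 2 and 16.1 (rank 11809) when pooled. As multiples of the list medians the replicates gave 0.724 and 1.32 (1.02 ± 0.422, SD, n = 2). The entry was thus near the end of the list of replicate 1 and in the lower part of the pooled list, while replicate 2 placed it above its median. The replicates' summits were 251 bp apart, 905 and 654 bp upstream, and lay in a coding exon and the 3' UTR of the gene F19B6.1, which ends 85 bp before ufd-1 on the same strand. A second region of replicate 2, with a signal of 6.41 and rank 19631, had its summit 26 bp inside ufd-1. No IDR peak lay within 20 kb of the gene.

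The npl-4.1 and npl-4.2 genes, which encode the partner of UFD-1 in the adaptor, had no entry in their windows in any of the 4 lists. They are near-identical copies on chromosome II, npl-4.1 (WBGene00019120) at chrII:5631351-5633284 and npl-4.2 (WBGene00019121) at chrII:5622889-5624959, with 5' ends 8462 bp apart. The proteins had the same residue in 99.1% of 529 positions and the coding sequences in 99.5%. Upstream of the 5' ends the sequences were identical for 1325 bp without a break. The last 120 bases before the 5' end are shown once for both copies, since they are the same at chrII:5631231-5631350 and chrII:5622769-5622888, plus strand.

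npl-4.1 and npl-4.2: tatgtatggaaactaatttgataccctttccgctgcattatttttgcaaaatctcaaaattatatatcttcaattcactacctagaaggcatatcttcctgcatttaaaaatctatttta

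Little of this sequence is unique in the genome. Of the 30-base words in the windows of npl-4.1 and npl-4.2, 24.0% and 24.7% occurred once in the genome, against a median of 98.9% over the windows of all protein-coding genes. The read length and the treatment of reads with several matches were not given in the sources used here. Among the 549 protein-coding genes whose windows had under 50% such words, 84.2% had no entry in any list and 1.09% had an IDR summit. Among the other 19436 genes the shares were 20.8% and 11.6%. For npl-4.1 and npl-4.2, a lack of binding and a lack of reads that can be placed cannot be told apart. The nearest pooled entries were 5070 bp from the 5' end of npl-4.1, with rank 17576, and 3312 bp from that of npl-4.2, with rank 8400. Both genes share their upstream space with a gene read the other way, F59E12.6 at npl-4.1 (399 bp apart) and eif-3.L at npl-4.2 (405 bp apart).

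**Figure D4:**
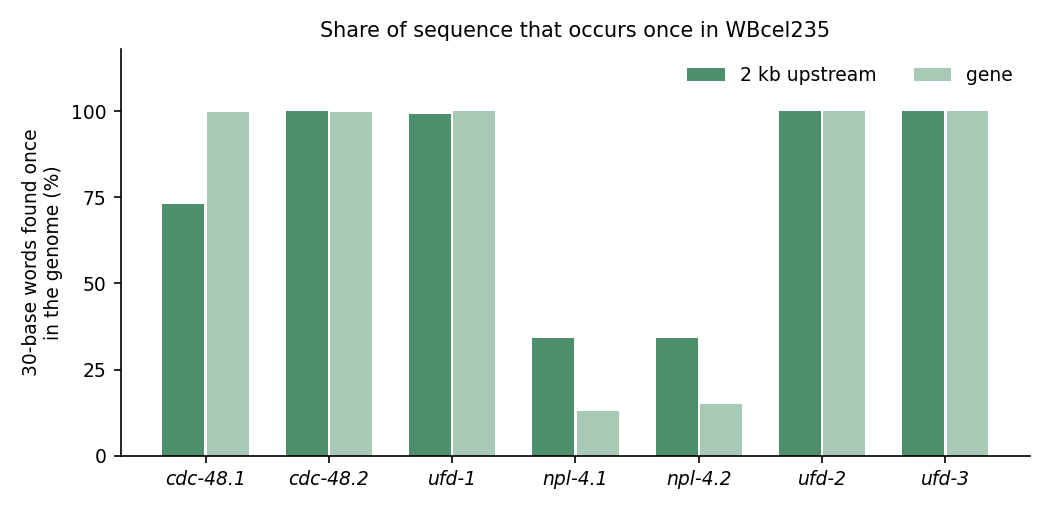
Percent of 30-base words that occur once in WBcel235, for the 2 kb upstream (dark bars) and the gene (light bars) of each of the 7 genes. The upstream bars of npl-4.1 and npl-4.2 stand at 34.2% each and their gene bars at 13.1% and 15.1%, while cdc-48.1 has 73.0% upstream and the other 4 genes 99.3% or more.

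Of the other 5 windows, that of cdc-48.1 held the most repeated sequence, with 27.0% of the words in its 2 kb upstream found again in the genome. None of them was in the peak: all 199 words of the pooled entry occurred once. The same held for the 311 words of each pooled entry of cdc-48.2, ufd-1, ufd-2 and ufd-3.

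Counted over the 7 genes, 3 had an IDR summit in the window, against 11.3% of all protein-coding genes. With the first 1895 entries of replicate 1 alone the count was 3, against 11% of all genes, and with those of replicate 2 alone it was 2, namely cdc-48.1 and ufd-3, against 11%. In the pooled list 5 of 7 were listed, against 53.5% of all genes, in replicate 1 it was 5 against 64.6%, and in replicate 2 it was 5 against 61.1%. The same 5 genes were listed in the pooled and both replicate lists, as 43% of all genes were. The 2 genes in no list were the npl-4 copies, against 22.6% of all genes. For the longer lists the members' shares are near the background, and since cdc-48.1 was chosen for its peak, nothing is read from the count of 3. Windows were of similar length, with a median of 4735 bp for the 7 genes and 4026 bp for all genes.

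The order by highest pooled signal was cdc-48.1, ufd-3, ufd-2, cdc-48.2 and ufd-1. Among 10687 genes with a pooled entry, these stood at places 6, 701, 1952, 2941 and 7885. The median over those genes was 20.8, so that 4 of the 5 were above it and ufd-1 was below. Since all genes were measured in the same 2 replicates, neighbours in this order were compared by the ratio of their signals within each replicate. The ratio of cdc-48.1 over ufd-3 was 7.87 in replicate 1 and 4.09 in replicate 2. For ufd-3 over ufd-2 it was 1.19 and 3.74, in 1 direction but of unequal size. For ufd-2 over cdc-48.2 the ratios were 1.29 and 1.25, a small difference of nearly the same size in both. The order of cdc-48.2 and ufd-1 turned between replicates, with 25.8 against 6.95 in replicate 1 and 9.38 against 10.6 in replicate 2, ratios of 3.71 and 0.888. The ufd-1 values come from replicate entries with summits 251 bp apart, so they may not describe 1 site.

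**Figure D5:**
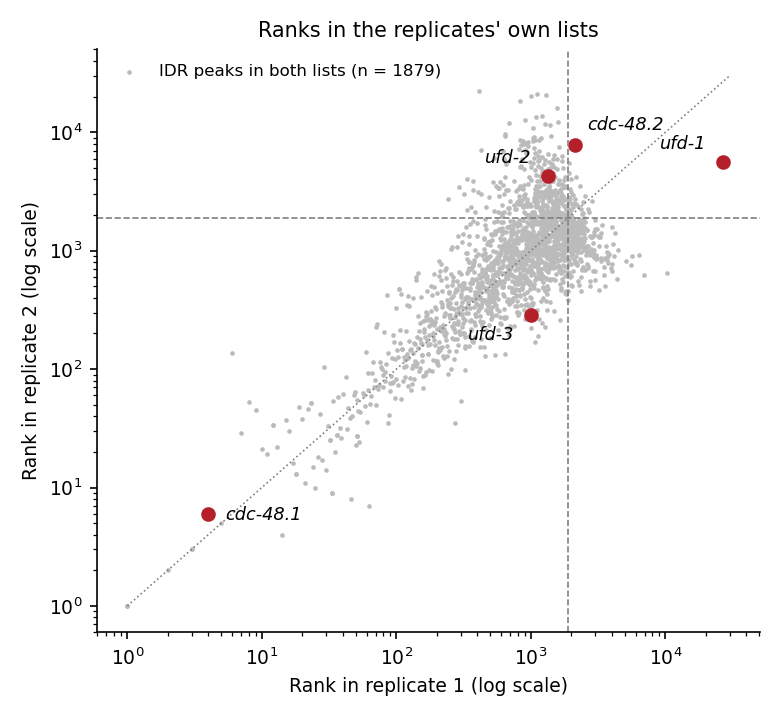
Rank in replicate 2 against rank in replicate 1 (both axes log) for 1879 IDR peaks listed in both (grey) and for the highest entries of the 5 listed genes (red); dashed lines mark rank 1895 and the dotted line equal ranks. The cdc-48.1 point is at 4 and 6, the ufd-3 point lies below the dotted line at 1000 and 289, and the ufd-2 point lies above it at 1349 and 4281.

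The replicates' signals nearly added up to the pooled signal, as at the other peaks. At cdc-48.1 their sum was 0.995 of the pooled signal, at ufd-3 0.970, at ufd-2 0.948, at cdc-48.2 1.03 and at ufd-1 1.09, against a median of 0.999 over 1879 IDR peaks and a range from the 5th to the 95th percentile of 0.912 to 1.12. Replicate 2 gave 26.0% of the summed signal at ufd-2 and 26.7% at cdc-48.2, below the median of 37.4% but within the same range of percentiles (22.8 to 52.3%). At ufd-1 it gave 60.3% and at ufd-3 52.6%, both above that range. The range is that of IDR peaks, which cdc-48.2 and ufd-1 do not have. At ufd-1 the share also joins replicate entries whose summits were 251 bp apart. Depth per replicate, which these shares also reflect, is unknown.

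No match to a Fos-Jun site was found in the members' entries. The pooled entries were searched on both strands for 7 motifs. The Fos-Jun site was searched as TGANTCA with C or G at the N. The cAMP-response site of related leucine zipper factors was searched as TGACGTCA, and the site of C/EBP factors as TTGCGCAA. Sites of other factor families were the E-box, which is CACGTG, the GC-box, which is GGGCGG, and the site of GATA factors, written as TGATAA. The last motif was the simple repeat GAGAGAG. The entries of cdc-48.1, ufd-2 and ufd-3 held none of the 7. The cdc-48.2 entry held 1 TGATAA, 50 bp from the summit, and the ufd-1 entry held 2, at 41 and 73 bp. Shares of all IDR peaks that held each motif were 6.65% for the Fos-Jun site, 1.69% for TGACGTCA, 1.11% for TTGCGCAA, 9.29% for CACGTG, 12.1% for GGGCGG, 21.6% for TGATAA and 28.7% for GAGAGAG. All pooled entries gave 4.96%, 1.92%, 0.624%, 6.63%, 6.98%, 30.4% and 12.3% in the same order. Each motif was thus missing from most peaks, and its absence from 3 peaks says only that those letters are not in these windows.

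In the window from 250 bp before to 50 bp after the 5' end, CACGTG occurred once at ufd-1 and once at ufd-2, against 5.81% of all promoters, and TGATAA occurred 2 times at ufd-2, against 30.2%. The other 5 genes had no match to the 7 motifs in that window. By base composition the cdc-48.1 entry had 31.6% G and C, the cdc-48.2 entry 30.9%, the ufd-1 entry 33.2%, the ufd-2 entry 40.0% and the ufd-3 entry 35.3%, against a median of 40.3% over IDR peaks and 35.0% over pooled entries. The entry of highest signal among the 7 genes thus had less G and C than the median IDR peak, but the spread of IDR peaks was not computed. In the promoter window cdc-48.1 had 34.0% G and C, against a median of 34.3% over all promoters.

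Genes around the CDC-48 system were counted in lists made with earlier results of these data known. The shares and intervals below are therefore descriptions, and no test against all genes was made. Of 11 further adaptors and partners, 6 had an IDR summit in the window (54.5%, 95% Clopper-Pearson interval 23.4 to 83.3%), against 11.3% of all protein-coding genes, and all 11 were listed in the pooled list, against 53.5% of all genes. The median of their highest pooled signals was 43.5, against 20.8 over all genes with a pooled entry. The highest of them was at the ubiquilin gene ubql-1, whose product carries ubiquitinated proteins to the proteasome, with a pooled signal of 96.8 and ranks of 411 in replicate 1 and 405 in replicate 2. Next came the UBX-domain cofactor gene ubxn-2 (66.2, ranks 1723 and 543), the ataxin-3 deubiquitinase gene atx-3 (57.2, ranks 1029 and 1204) and the UBX-domain cofactor gene ubxn-3 (56.3, ranks 1280 and 997). At atx-3 the summit was 1162 bp upstream and much nearer the 5' end of F28F8.9, at 66 bp, so the peak is given here to atx-3 by the window alone. The IDR summits of ubxn-6 (1129 bp upstream) and rad-23 (244 bp upstream) were also nearer another gene. These were eif-1.A, with its 5' end at 308 bp, and rpn-12, at 151 bp. With 1000 bp upstream, 4 of the 11 had an IDR summit, against 9.16% of all genes. With the first 1895 entries of either replicate alone the count was 5 of 11, against 11% of all genes. The 5 adaptors without an IDR summit had pooled entries at ranks from 2509 to 14679.

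Of 10 genes of ER-associated degradation, the pathway in which CDC-48 pulls misfolded proteins from the endoplasmic reticulum, 3 had an IDR summit (30%, interval 6.67 to 65.2%), against 11.3% of all genes. A pooled entry was listed for 8 of the 10, against 53.5% of all genes, with a median highest signal of 27.8, against 20.8. The 3 with an IDR summit were the ubiquitin-conjugating enzyme genes ubc-7 (74.0, ranks 1223 and 481 in replicates 1 and 2) and ubc-6 (58.2, ranks 1286 and 1388), and the derlin gene cup-2 (44.0, ranks 1793 and 1964), whose summit was nearer the 5' end of tag-353. Of 21 other AAA ATPase genes, 10 had an IDR summit (47.6%, interval 25.7 to 70.2%), against 11.3% of all genes. The list includes the proteasome ATPase genes, of which rpt-1, rpt-3 and rpt-4 had an IDR summit and rpt-2, rpt-5 and rpt-6 did not. With 1000 bp upstream the count was 8, against 9.16% of all genes, while that of ER-associated degradation stayed at 3. With the first 1895 entries of replicate 1 alone these counts were 9 and 3, against 11% of all genes. With those of replicate 2 alone they were 12 and 2, against 11%. The IDR summits of prx-1 and rpt-4 were nearer the 5' ends of mgrn-1 and nfyc-1. In the pooled list 19 of the 21 had an entry, against 53.5% of all genes, with a median highest signal of 50.4, against 20.8. The highest were vps-4, of membrane remodelling (132, ranks 230 and 191), the mitochondrial factor gene bcs-1 (98.8, ranks 504 and 306, nearer the 5' end of rpl-5), the microtubule-severing ATPase gene spas-1 (88.1, ranks 663 and 373) and the mitochondrial ATPase gene atad-3 (79.6, ranks 648 and 637). None of the genes in these 3 lists reached the pooled signal of cdc-48.1, 493.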

How the data were processed

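FOS-1 ChIP-seq of whole L1 larvae was measured in 2 biological replicates of 1 group. The signal values, of unstated scaling, and the −log10 q values were deposited by the authors, 4 lists in each of the builds ce10 and ce11; the ce10 lists were used for ranks alone. Per the deposited notes, alignments of a replicate were set against a control file, the same for both, to make its list; alignments of both gave the pooled list, and the IDR list was drawn from all 3. The aligner, peak caller, IDR threshold and duplicate removal were not given in the sources used here, and depth is unknown.

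Entries were ranked by signal, since the q values are tied at the top (all 1895 IDR peaks carry 3.63). Gene models were Ensembl release 115 on WBcel235, and sequence was read from the RefSeq copy of that assembly; 0 entries ended past a chromosome end. An entry counted for a gene where its summit lay in the window; entries of 2 genes' windows counted for both. Words of 30 bases were counted on both strands of the genome. Proteins were translated from annotated coding sequence and aligned with BLOSUM62. Assignment was tested on simulated data (200 of 200 genes recovered). Alignments were made with biopython 1.88, and the rest with pandas 2.3.3, numpy 2.4.6, scipy 1.17.1 and matplotlib 3.10.9 under Python 3.11.15. Intervals cover counting error over genes only and were not used as a test against all genes.

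The members, lists, motifs and rules were chosen with earlier results of these data known. Named genes were the 7 members and, in each further list, up to 4 genes with an IDR summit and the highest pooled signal. Also named were the 4 entries nearest cdc-48.1 in pooled rank, and genes with a 5' end nearer to a member's entry. Neighbouring genes named for position are an addition, as are ubxn-6, rad-23, prx-1 and the rpt genes. Of the listed symbols, 3 (edem genes) were not found in the annotation and were left out. Alternatives covered the upstream window, the overlap rule, nearest genes, each replicate alone, the IDR peaks of higher signal, sums of signal, a motif search within 50 bp of the summit and ce10; 2 more were added after seeing the data.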

Additional observations from a re-analysis of the deposited data

How the results depend on the processing

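Of 52 alternative values, 48 stayed within 1.5 times (counts) or the SD of the replicates (other values), and 4 moved. With 2 replicates that SD is wide and made from the same values as those with each replicate alone, so this says little about their stability. A reversal could be scored only for the log2 ratio of cdc-48.1 to cdc-48.2, where none was seen. Sums of signal could not change that ratio, since each gene had 1 pooled entry. Likewise, a narrower upstream window could not change a value at genes whose pooled summit lay inside it. The order of cdc-48.2 and ufd-1, which turned between replicates, was not among the alternatives. The count of genes with an IDR summit was 3 with 1000 or 500 bp upstream, any overlap and nearest genes. It was 2 in the IDR peaks of higher signal, and 2 to 3 with each replicate alone. Leaving out the npl-4 copies, an alternative added after seeing the data, could not change this count, since they had no entry in any list. With 500 bp upstream, 3 of the 7 genes kept a pooled entry rather than 5, because the entries of cdc-48.2 and ufd-1 lie farther out. The share of pooled entries above the cdc-48.1 peak was 0.0147%, and 0.00492% with nuclear chromosomes alone, also added after seeing the data; it ran from 0.0101% to 0.0213% with each replicate alone. With each replicate alone this share ran from 7.10% to 33.2% for cdc-48.2 (13.2% pooled) and from 4.52% to 18.2% for ufd-2 (7.76% pooled), the higher values without replicate 1. For ufd-1 it ran from 24.0% to 90.4% (58.0% pooled), the widest range of the 5 genes in percentage points, and for ufd-3 from 1.23% to 3.35% (2.52% pooled), the higher values without replicate 2. The log2 ratio of cdc-48.1 to cdc-48.2 was 3.85 pooled and 3.59 to 4.26 with each replicate alone. It could not be computed with 1000 or 500 bp upstream, where cdc-48.2 had no pooled summit. Those settings, and the share of entries above cdc-48.2 with 1000 bp upstream, gave no value and are not among the 52 alternative values. No pairing of samples between groups was possible because both samples belong to the same group. Without known depth, sites too weak to be listed cannot be told from unbound ones.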
